A study of Homo sapiens with 6 samples.

Results

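Peaks of the RNA helicase DHX9 that lay on both strands of the same DNA were described at 4 loci of HEK293 cells. The loci were the neighbouring genes DDT and DDTL, the stretch upstream of SPEN, the pair MFSD12 and C19orf71, and the pair VPS9D1 and VPS9D1-AS1. They held 141 of the 28449 deposited peak regions, 42 of 6831 in the DHX9-mAb list and 99 of 21618 in the DHX9-Rb list. The loci were chosen by the measured peaks themselves, as places where peaks of opposite strands face each other. Their high share of facing peaks is therefore a description and carries no test.

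HEK293 is an established line from human embryonic kidney. The cells were irradiated with UV-C light to bind RNA to protein, and RNA was recovered with an antibody by FLASH, a protocol of the CLIP family. Each of the 3 antibody groups had 2 biological replicates: DHX9-mAb and DHX9-Rb, which are different antibodies to DHX9, and the control IgG-Rb. No treatment or genetic change separated the groups. The control material was mixed with other pulldown material before RNA isolation and told apart by its sequence tag, and values of the IgG-Rb group were not used here. Each DHX9 antibody had 1 peak list that names no replicate, so no value below has a spread between replicates. The lists give the first base, the last base and the strand of a peak, with no height or read number, so the depth behind a peak is unknown and a place without a peak is only one without a call.

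DHX9, also called RNA helicase A, unwinds double-stranded RNA. Such RNA can form within 1 transcript, as where inverted Alu repeats pair, or between transcripts made from opposite strands of the same DNA. Transcripts from opposite strands are complementary wherever they overlap, and overlapping genes of this kind are called sense and antisense pairs.

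DDT/DDTL, MFSD12/C19orf71 and VPS9D1/VPS9D1-AS1 are pairs of annotated genes on opposite strands. The remaining locus is the stretch upstream of SPEN, so SPEN itself is not part of it. DDT encodes D-dopachrome tautomerase, an enzyme and secreted protein related to the cytokine MIF, and lies on the minus strand. Its close relative DDTL lies on the plus strand. MFSD12, on the minus strand, encodes a membrane transporter of lysosomes and melanosomes that takes part in pigmentation. C19orf71, on the plus strand and now named TEKTIP1, encodes a protein of the tektin bundle in cilia. VPS9D1, on the minus strand, encodes a protein with a VPS9 domain, and VPS9D1-AS1 is a long non-coding RNA from the plus strand. SPEN, on the plus strand, encodes a large RNA-binding repressor of transcription, and its annotated antisense transcript FLJ37453, which RefSeq names SPEN-AS1, lies on the minus strand.

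In the GENCODE 29 annotation of GRCh38, the spans of DDT and DDTL overlapped by 1168 nt and their exons by 259 nt. MFSD12 and C19orf71 overlapped by 4877 nt, with 255 nt of facing exon. On the MFSD12 side all of it came from transcripts annotated as retained introns, which have no coding sequence. VPS9D1 and VPS9D1-AS1 overlapped by 6310 nt, with 518 nt of facing exon. SPEN and its antisense transcript overlapped by 284 nt, with 40 nt of facing exon. The peaks are on hg19, an earlier build, so these annotated overlaps were not placed against single peaks, and no peak is assigned to an exon.

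Exon sequence that both genes of a pair transcribe shows what facing means at the level of RNA. The following lines give such stretches from the GENCODE 29 transcripts, 5′ to 3′ in the sense of the named transcript and in lower case throughout. The pair at SPEN is printed from both genes, and each of these runs is the reverse complement of the other. They are bases 245 to 284 of SPEN-201, which are coding, and bases 1 to 40 of FLJ37453-201.
SPEN-201: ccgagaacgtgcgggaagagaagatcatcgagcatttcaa
FLJ37453-201: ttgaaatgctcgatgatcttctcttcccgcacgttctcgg
C19orf71-201: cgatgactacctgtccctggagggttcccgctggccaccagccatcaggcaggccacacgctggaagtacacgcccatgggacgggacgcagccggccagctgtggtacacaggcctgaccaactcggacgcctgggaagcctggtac
VPS9D1-201: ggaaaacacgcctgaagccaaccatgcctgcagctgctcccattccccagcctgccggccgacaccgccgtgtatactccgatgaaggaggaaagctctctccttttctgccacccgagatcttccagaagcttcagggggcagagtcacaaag
The C19orf71 run covers coding bases of that transcript, positions 108 to 255, and the non-coding transcript MFSD12-210 holds its reverse complement at positions 1 to 148. The VPS9D1 run is coding, positions 394 to 547, and VPS9D1-AS1-202 holds its reverse complement at positions 498 to 651. Each printed run was the longest facing stretch of exon of its gene pair outside untranslated sequence. The SPEN run belongs to SPEN itself, while the locus with the peaks is the stretch upstream of that gene.

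DDT and DDTL also resemble each other in the sense direction. The first 285 coding bases of DDT-201 and DDTL-201 were identical, 80.5% of the 354 coding bases of DDT-201. Coding bases 226 to 345 of both are printed here, with capitals from the base at which the identity ends.
DDT-201: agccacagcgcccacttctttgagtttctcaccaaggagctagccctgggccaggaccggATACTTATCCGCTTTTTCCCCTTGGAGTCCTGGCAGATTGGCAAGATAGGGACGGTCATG
DDTL-201: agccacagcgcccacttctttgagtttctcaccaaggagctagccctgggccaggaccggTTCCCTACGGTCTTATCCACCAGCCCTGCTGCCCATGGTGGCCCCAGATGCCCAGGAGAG
Short reads from the identical exons fit either gene, and the genes lie on opposite strands. How reads with several matches were treated is not given in the sources used here, so the division of peaks between the strands is uncertain wherever they cover these exons. What part this has in the facing peaks was not tested.

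A peak was called facing when it overlapped a peak of the opposite strand in the same list by at least 1 nt. In the DHX9-Rb list 0.666% of all peaks were facing, against 65 of the 99 peaks at the 4 loci, or 65.7% (95% Wilson interval 55.9 to 74.3). In the DHX9-mAb list 0.644% of all peaks were facing, against 13 of the 42 at the loci, or 31.0% (19.1 to 46.0). The mitochondrial chromosome gave 31 of the 44 facing peaks of the DHX9-mAb list, from 50 peaks, and 32 of the 144 of the DHX9-Rb list, from 54 peaks. Outside it and the 4 loci, 0 of 6739 peaks were facing with DHX9-mAb and 47 of 21465 (0.219%) with DHX9-Rb. The intervals here take peaks as independent and cover counting error at most. A facing peak makes its partner facing too, so the peaks are not independent. Since the loci were selected on facing peaks, nothing is read from these gaps.

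Joined where they lay within 10 kb of each other, the facing DHX9-Rb peaks outside the mitochondrial chromosome formed 20 places. The 4 loci held 65 of their 112 peaks, 58.0%. The stretch upstream of SPEN had 31 facing peaks, DDT/DDTL 14, MFSD12/C19orf71 12 and VPS9D1/VPS9D1-AS1 8. Just below these came a place with 7, and 10 of the remaining 16 places had 2. In the DHX9-mAb list there were 13 facing peaks outside the mitochondrial chromosome, 9 at DDT/DDTL and 4 upstream of SPEN.

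**Figure D1:**
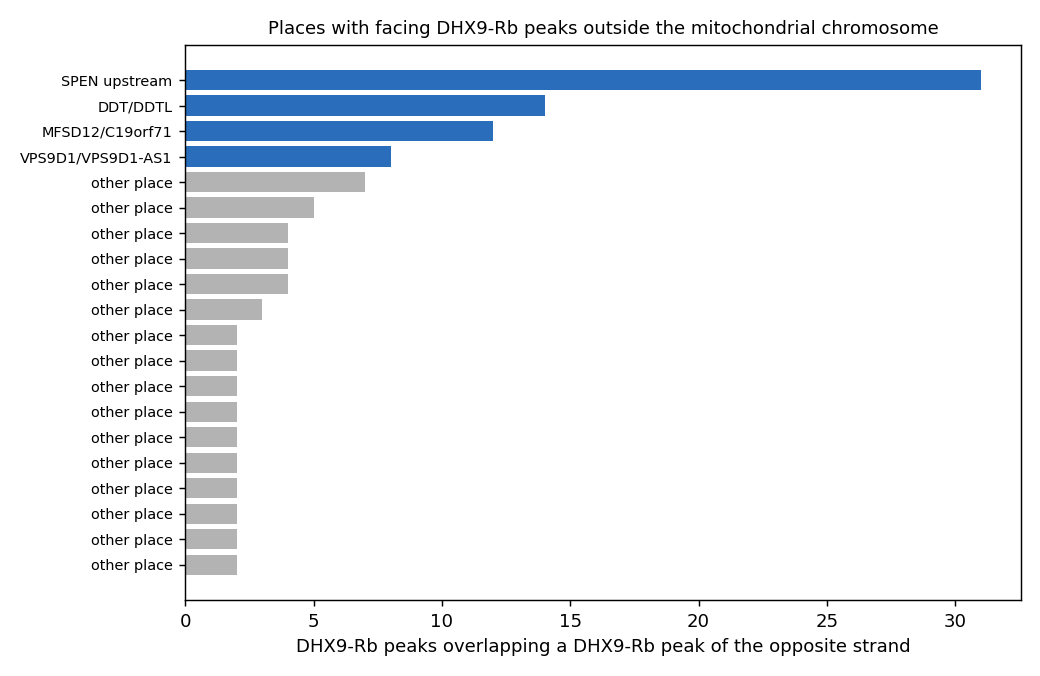
Each bar is a place outside the mitochondrial chromosome with facing DHX9-Rb peaks, and its length is the number of such peaks. The 4 named loci have 31, 14, 12 and 8, and the 16 other places have 7 or fewer.

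The layout of the peaks differed from locus to locus. DDT/DDTL had a compact block of peaks on both strands and with both antibodies. The stretch upstream of SPEN had a long row of plus-strand DHX9-Rb peaks, spanning 12959 nt. Opposite most of it lay a row of minus-strand DHX9-Rb peaks, spanning 10072 nt. At MFSD12/C19orf71 nearly all peaks came from DHX9-Rb, and at VPS9D1/VPS9D1-AS1 3 minus-strand peaks faced a row of plus-strand peaks.

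**Figure D2:**
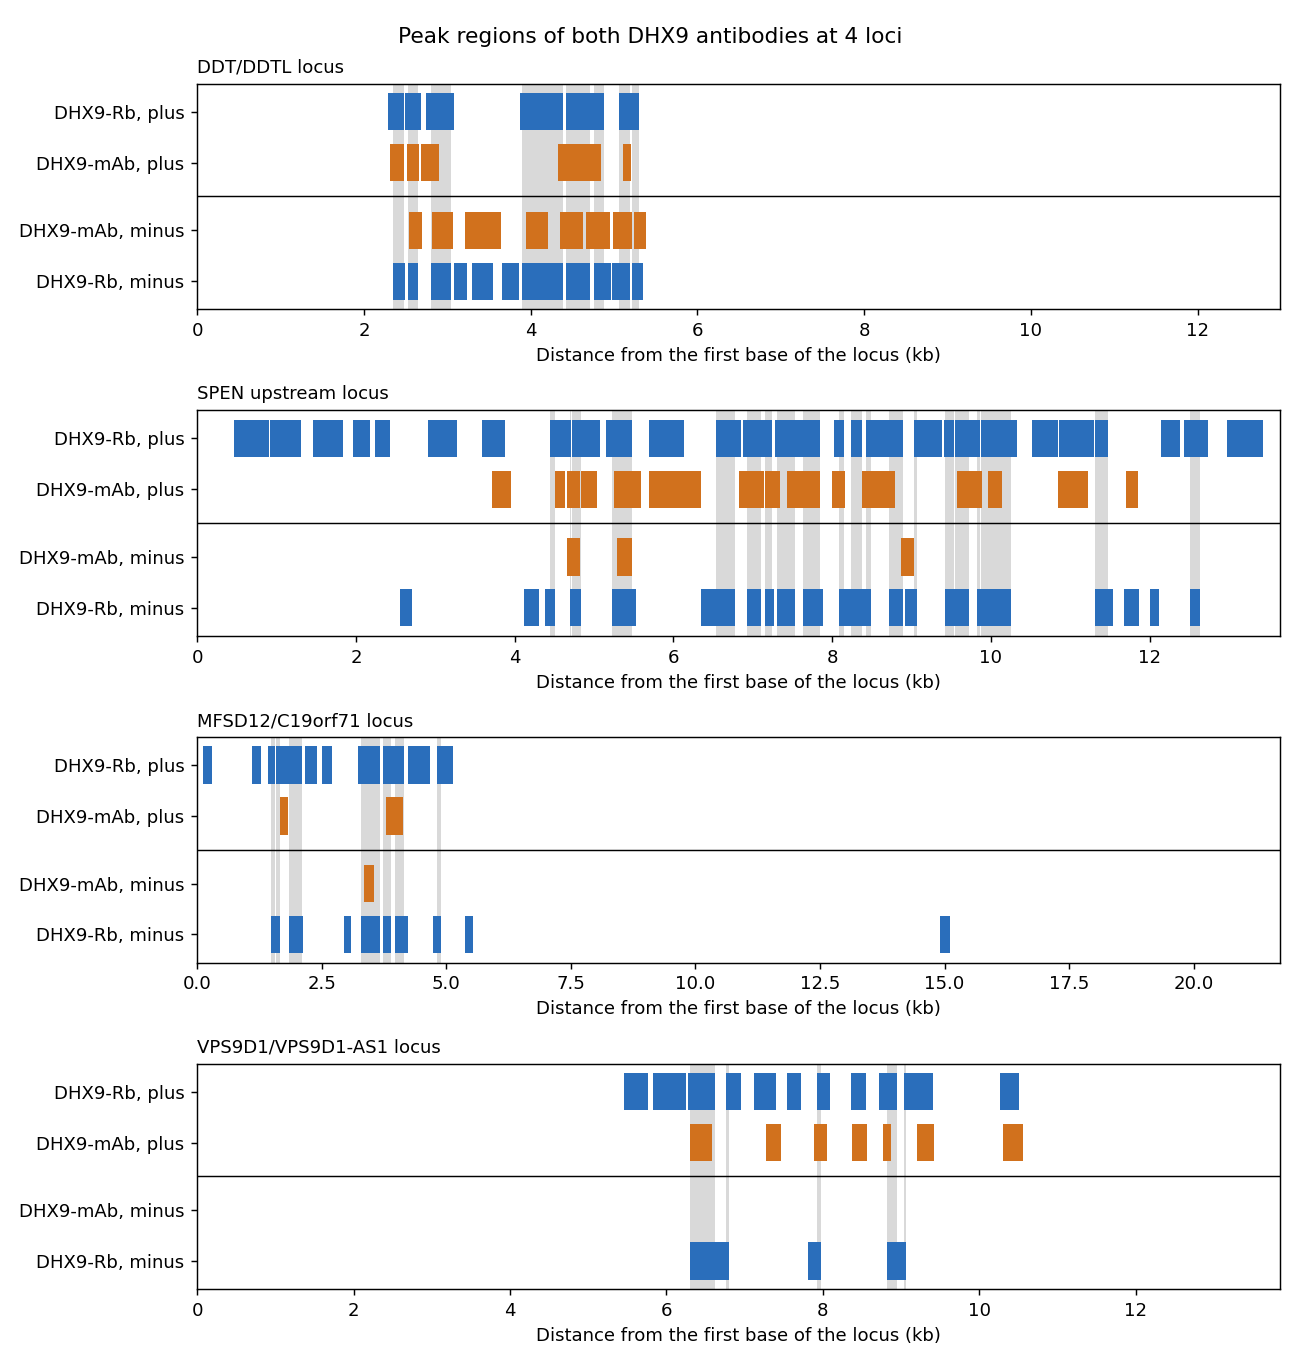
Peak regions at each locus are drawn as boxes along the distance from the first base of the locus in kb, with DHX9-Rb in blue, DHX9-mAb in orange, the plus strand above the line and the minus strand below it. Grey bands mark sequence covered by DHX9-Rb peaks on both strands, in 8 stretches at DDT/DDTL, 20 upstream of SPEN, 7 at MFSD12/C19orf71 and 5 at VPS9D1/VPS9D1-AS1.

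The DDT/DDTL locus spans chr22:24309026-24322019 on hg19, 12994 nt. DHX9-Rb had 6 plus-strand and 11 minus-strand peaks there, and DHX9-mAb had 5 and 8. All lay between 24311316 and 24314408, and neither list had a peak on either strand within 25 kb outside the locus. The minus strand thus held more peaks than the plus strand with either antibody. DDT is annotated on the minus strand with 8464 nt and DDTL on the plus strand with 5632 nt. All peaks began within 5237 nt of the first base of the locus, and whether a minus-strand peak lay within DDT was not tested. Sequence covered on both strands by DHX9-Rb came to 1611 nt, more than the 1168 nt by which the annotated genes overlap. By these lengths, part of the facing sequence lay outside that overlap, so the strand of a peak does not assign it to DDT or DDTL. The overlap was measured on another build, and which peaks lay outside it was not tested.

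The plus-strand DHX9-Rb peaks formed 2 clusters. The first held the peaks 24311316 to 24311505, 24311522 to 24311714 and 24311765 to 24312099. The second held 24312896 to 24313413, which at 518 nt was the widest DHX9-Rb peak of the locus, 24313444 to 24313899 and 24314086 to 24314322. The gap between the clusters, 796 nt wide, held 3 minus-strand DHX9-Rb peaks, and these were the only DHX9-Rb peaks of the locus that faced none. DHX9-mAb left a wider gap on the plus strand, 1426 nt, and it held 2 minus-strand DHX9-mAb peaks.

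All 5 plus-strand DHX9-mAb peaks overlapped plus-strand DHX9-Rb peaks. They were 24311341 to 24311505, 24311539 to 24311690, 24311714 to 24311924, 24313351 to 24313868 and 24314136 to 24314229. The fourth, also 518 nt, was the widest DHX9-mAb peak of the locus. DHX9-Rb covered 93.0% of the plus-strand DHX9-mAb sequence, and DHX9-mAb covered 55.0% of the plus-strand DHX9-Rb sequence. With the DHX9-Rb peak 24312896 to 24313413 the overlap was only 63 nt.

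All 6 plus-strand DHX9-Rb peaks at DDT/DDTL faced a minus-strand peak, and 8 of the 11 minus-strand peaks faced a plus-strand one. Sequence covered on both strands came to 1611 nt, which was 83.5% of the plus-strand and 65.6% of the minus-strand DHX9-Rb coverage. It lay in 8 stretches. The first 3 were 24311371 to 24311505, 24311557 to 24311670 and 24311832 to 24312073. The longest followed, 490 nt from 24312924 to 24313413, and then 294 nt from 24313449 to 24313742. The last 3 were 24313783 to 24313899, 24314086 to 24314219 and 24314238 to 24314322. In 3 of the 8 facing pairs 1 peak lay wholly inside the other.

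DHX9-mAb had 9 facing peaks of 13 at DDT/DDTL, in 6 stretches that came to 766 nt. They ran from 24311565 to 24311690, 24311714 to 24311719, 24311840 to 24311924, 24313379 to 24313650, 24313686 to 24313868 and 24314136 to 24314229. The shortest measured 6 nt and the longest 272 nt. Of these 766 nt, 85.5% was also covered on both strands by DHX9-Rb. That sequence, 655 nt in 7 stretches from 24311565 to 24314219, was the part of the locus where both antibodies had peaks on both strands.

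The locus upstream of SPEN spans chr1:16160710-16174358, 13649 nt. DHX9-Rb had 28 plus-strand and 20 minus-strand peaks, and DHX9-mAb had 16 and 3. The annotated antisense transcript of this stretch lies on the minus strand, while most peaks of either list lay on the plus strand. SPEN is on the plus strand too, but its annotated overlap with that transcript is 284 nt on another build. DHX9-Rb covered 2867 nt on both strands, so the strand of a peak does not assign it to SPEN. The widest peaks were on the plus strand too, 569 nt from 16167987 to 16168555 for DHX9-Rb and 486 nt from 16166406 to 16166891 for DHX9-mAb.

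The strand that held peaks changed along the stretch. In the 25 kb before the locus DHX9-Rb had 8 peaks and DHX9-mAb 3, all on the minus strand. In the 25 kb after it they had 28 and 13, all on the plus strand, the nearest of them a DHX9-Rb peak 214 nt past the end. Inside the locus, 7 plus-strand and 2 minus-strand DHX9-Rb peaks came before the first facing stretch. The zone from the first facing base to the last then held 19 plus-strand and 18 minus-strand peaks over 8184 nt, and 2 plus-strand peaks came after it.

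The minus-strand DHX9-Rb peaks upstream of SPEN ran from 16163270 to 16163418 for the first to 16173223 to 16173341 for the last, and the widest spanned 425 nt from 16167059 to 16167483. Of the 20, 16 faced a plus-strand peak, and 15 of the 28 plus-strand peaks faced a minus-strand one. Both strands were covered over 2867 nt in 20 stretches of 18 to 383 nt. That was 32.6% of the plus-strand and 67.5% of the minus-strand coverage. The longest stretches were 16170582 to 16170964, 16165930 to 16166187 and 16167246 to 16167483, and the outermost were 16165158 to 16165219 and 16173223 to 16173341.

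DHX9-mAb had few minus-strand peaks upstream of SPEN. They were 16165371 to 16165534, 16166004 to 16166188 and 16169583 to 16169745. The first 2 lay wholly inside plus-strand DHX9-mAb peaks, so the facing stretches of that list were those peaks themselves, 164 nt and 185 nt. All 3 overlapped minus-strand DHX9-Rb peaks. Both antibodies covered both strands over 301 nt in 3 stretches.

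The antibodies also faced each other here. Of the 16 plus-strand DHX9-mAb peaks, 2 faced a peak of their own list and 13 faced a minus-strand peak of either list. Some of these overlaps were short. The peaks 16165214 to 16165343, 16165545 to 16165746 and 16166896 to 16167060 faced by 6, 2 and 2 nt only. In 17 stretches, plus-strand DHX9-mAb peaks and minus-strand DHX9-Rb peaks shared 1875 nt. A pair of plus-strand DHX9-mAb peaks overlapped no plus-strand DHX9-Rb peak, 16166896 to 16167060 and 16172418 to 16172560. The latter, 143 nt wide, lay wholly inside the minus-strand DHX9-Rb peak 16172383 to 16172572, so at that place each antibody marked another strand.

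The MFSD12/C19orf71 locus spans chr19:3538259-3560000, 21742 nt. DHX9-Rb had 11 plus-strand and 9 minus-strand peaks, and DHX9-mAb had 2 and 1. The plus strand is that of C19orf71 and the minus strand that of MFSD12. Apart from 1 minus-strand peak, every peak lay in the first part of the locus, up to 3543794. That peak, 3553173 to 3553376, stood 9378 nt beyond the DHX9-Rb peak before it on the strand. The next DHX9-Rb peak of the strand began 565 nt past the end of the locus, the nearest of 4 within 25 kb.

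The 9 minus-strand DHX9-Rb peaks included the facing peaks 3539745 to 3539922, 3540103 to 3540390, 3541555 to 3541925, 3541978 to 3542154, 3542222 to 3542480 and 3542991 to 3543152. Those that faced none were 3541197 to 3541346, 3543627 to 3543794 and 3553173 to 3553376. On the plus strand 6 of 11 peaks were facing, and the widest peak of the locus, 442 nt from 3542486 to 3542927, was not. It began just after a minus-strand peak had ended.

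Facing DHX9-Rb peaks covered 1218 nt of both strands at MFSD12/C19orf71, 39.5% of the plus-strand and 62.2% of the minus-strand coverage. The 7 stretches were 3539745 to 3539824, 3539839 to 3539922, 3540103 to 3540358, 3541555 to 3541917, 3541986 to 3542154, 3542222 to 3542414 and 3543080 to 3543152. The fourth, at 363 nt, was the longest. In none of the 7 pairs did 1 peak lie inside the other. The plus-strand peak came first in 4 pairs and the minus-strand peak in 3.

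DHX9-mAb had the minus-strand peak 3541605 to 3541798 and the plus-strand peaks 3539926 to 3540077 and 3542054 to 3542382, the last of which, at 329 nt, was its widest. None faced a peak of its own list. The minus-strand peak lay over its whole 194 nt opposite a plus-strand DHX9-Rb peak, inside the longest facing stretch. The later plus-strand peak lay opposite minus-strand DHX9-Rb peaks over 262 nt.

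The VPS9D1/VPS9D1-AS1 locus spans chr16:89773542-89787394, 13853 nt. DHX9-Rb had 11 plus-strand peaks, on the strand of VPS9D1-AS1, and 3 minus-strand peaks, on the strand of VPS9D1. DHX9-mAb had 7 plus-strand peaks and no minus-strand peak. In the 25 kb after the locus the order was the other way round, with 14 minus-strand peaks and 1 plus-strand peak for DHX9-Rb and 7 minus-strand peaks for DHX9-mAb.

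The minus-strand DHX9-Rb peaks were 89779846 to 89780339, 89781357 to 89781522 and 89782357 to 89782611. All 3 faced plus-strand peaks, and the first, at 494 nt, was the widest DHX9-Rb peak of the locus. Both strands were covered over 569 nt, 19.5% of the plus-strand and 62.2% of the minus-strand coverage. The 5 stretches were 89779846 to 89780157, 89780303 to 89780339, 89781463 to 89781522, 89782357 to 89782487 and 89782583 to 89782611. The first, 312 nt, held more than the other 4 together.

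Against those minus-strand peaks lay 3 of the 7 plus-strand DHX9-mAb peaks. They shared 285, 94 and 63 nt with them, 442 nt in all. The first of these plus-strand peaks, 89779841 to 89780130, was at 290 nt the widest DHX9-mAb peak of the locus. All but its first few bases lay opposite a minus-strand peak. The facing pattern at this locus rested on minus-strand calls of the DHX9-Rb list alone.

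**Figure D3:**
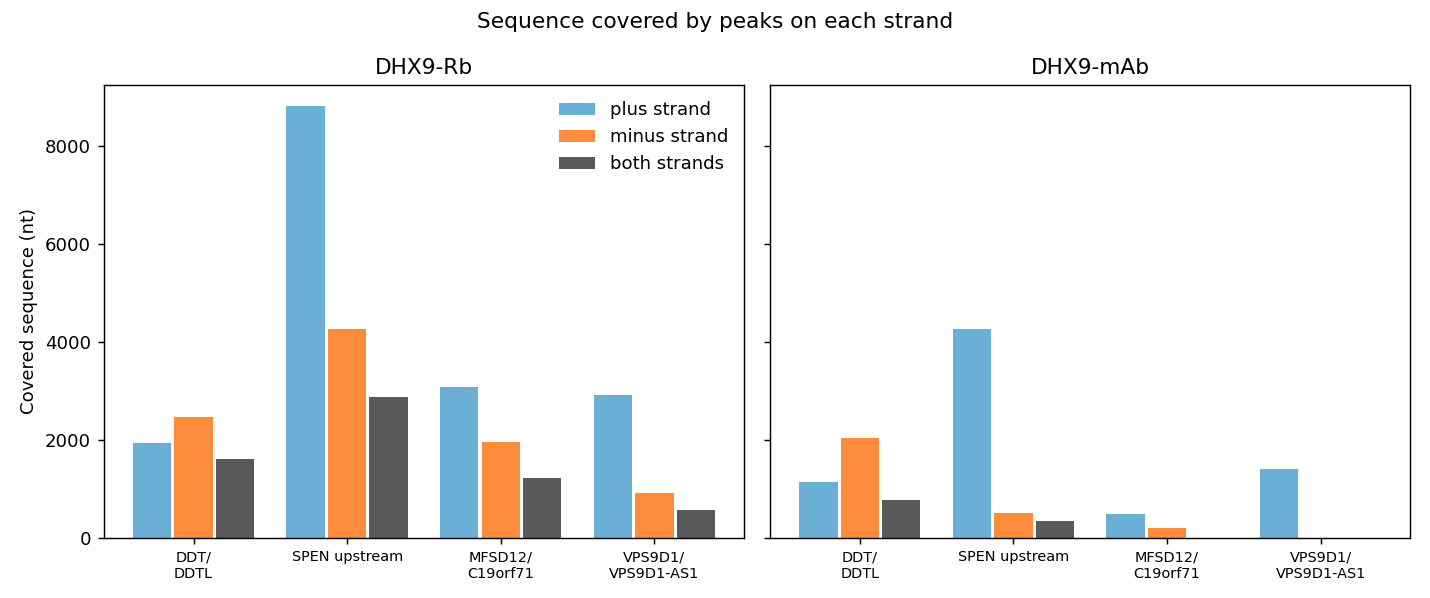
Bars give the sequence in nt that peaks of each list covered on the plus strand, the minus strand and both strands, at each locus. For DHX9-Rb the length covered on both strands is 1611 nt at DDT/DDTL, 2867 nt upstream of SPEN, 1218 nt at MFSD12/C19orf71 and 569 nt at VPS9D1/VPS9D1-AS1.

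The loci differed in how much of the plus-strand coverage was facing and little in how much of the minus-strand coverage was. For DHX9-Rb the plus-strand share was 83.5% at DDT/DDTL, 39.5% at MFSD12/C19orf71, 32.6% upstream of SPEN and 19.5% at VPS9D1/VPS9D1-AS1. The minus-strand share lay between 62.2% and 67.5% at all 4. DDT/DDTL was also the 1 locus where the minus strand carried more DHX9-Rb coverage than the plus strand, 2454 nt against 1929 nt.

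Neighbouring peaks changed strand often at the loci. Of 16 steps from a DHX9-Rb peak to the next at DDT/DDTL, 11 changed strand. It was 30 of 47 upstream of SPEN, 13 of 19 at MFSD12/C19orf71 and 6 of 13 at VPS9D1/VPS9D1-AS1. Over the whole DHX9-Rb list, 1.22% of 13297 steps of under 1 kb did so, while steps at the loci were counted at any distance. These steps follow from the way the loci were selected and are given as a description.

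The lists were also compared on the same strand. The loci were selected on peaks of both lists, so these shares too are a description. Shared peaks were those with at least 1 nt in common with a same-strand peak of the other antibody. In the whole DHX9-mAb list 88.0% of peaks were shared, and at the loci 40 of 42, 95.2% (84.2 to 98.7). In the whole DHX9-Rb list 28.6% were shared, and at the loci 44 of 99, 44.4% (35.0 to 54.3). The DHX9-Rb share ran from 15.0% at MFSD12/C19orf71 through 39.6% upstream of SPEN and 7 of 14 peaks at VPS9D1/VPS9D1-AS1 to 88.2% at DDT/DDTL. Peaks of 1 locus are not independent, and no comparison with the whole list is drawn.

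Sharing was uneven across the loci and their strands. At DDT/DDTL each of the 13 DHX9-mAb peaks was shared, as were 15 of the 17 from DHX9-Rb, 6 of 6 on the plus strand and 9 of 11 on the minus strand. Upstream of SPEN 15 of 28 plus-strand DHX9-Rb peaks were shared and 4 of 20 minus-strand ones. At VPS9D1/VPS9D1-AS1 it was 7 of 11 and 0 of 3, and at MFSD12/C19orf71 2 of 11 and 1 of 9. Both antibodies covered both strands over 655 nt at DDT/DDTL and 301 nt upstream of SPEN, and over 0 nt at the other loci.

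**Figure D4:**
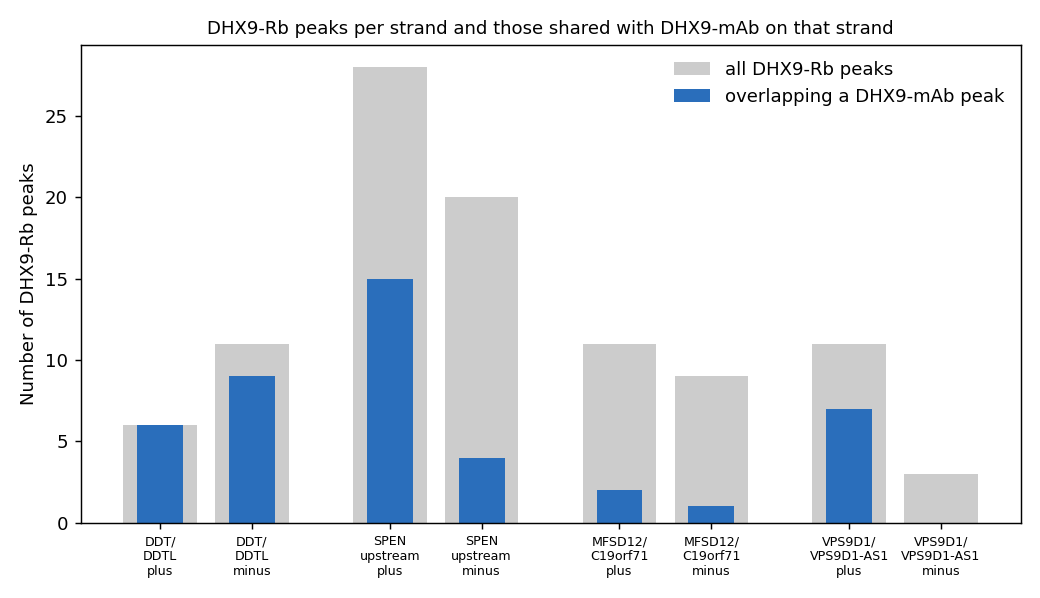
Grey bars give the number of DHX9-Rb peaks on each strand of each locus, and blue bars those that overlap a DHX9-mAb peak on the same strand. At DDT/DDTL 6 of 6 and 9 of 11 are shared, and of the minus-strand peaks at VPS9D1/VPS9D1-AS1 0 of 3.

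The number of peaks per antibody was uneven as well. Over the whole lists there were 3.17 DHX9-Rb peaks per DHX9-mAb peak on the plus strand and 3.16 on the minus strand. At DDT/DDTL the ratios were 1.20 and 1.38. Upstream of SPEN they were 1.75 and 6.67, and at MFSD12/C19orf71 the ratio was 5.50 on the plus strand, with 9 peaks against 1 on the minus strand. At VPS9D1/VPS9D1-AS1 the plus-strand ratio was 1.57, and the minus strand had no DHX9-mAb peak to form one. In covered sequence, DHX9-Rb exceeded DHX9-mAb upstream of SPEN 2.07 times on the plus strand and 8.30 times on the minus strand, and at MFSD12/C19orf71 6.41 and 10.1 times. At DDT/DDTL the order of the strands was the reverse of that in peak numbers, 1.69 times on the plus strand and 1.21 on the minus strand. At VPS9D1/VPS9D1-AS1 the plus-strand coverage ratio was 2.07.

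Counting a peak as facing when either list had a peak opposite it brought in the DHX9-mAb peaks that lay against DHX9-Rb peaks. By that rule 1.19% of all DHX9-mAb peaks were facing, and 33 of 42 at the loci. Of all DHX9-Rb peaks 0.694% were, and 66 of 99 at the loci. At DDT/DDTL 12 of 13 DHX9-mAb peaks then faced a peak, upstream of SPEN 16 of 19, at MFSD12/C19orf71 2 of 3 and at VPS9D1/VPS9D1-AS1 3 of 7. With at least 50 nt of overlap required, the DHX9-mAb count upstream of SPEN was 12, and those at the other loci did not change. The DHX9-Rb count gained 1 peak, a minus-strand peak upstream of SPEN.

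Within the loci, 35 of the 65 facing DHX9-Rb peaks were shared with DHX9-mAb, and 9 of the 34 others; this difference was not tested. At DDT/DDTL 13 of 14 facing and 2 of 3 other DHX9-Rb peaks were shared, and upstream of SPEN 15 of 31 and 4 of 17. It was 3 of 12 and 0 of 8 at MFSD12/C19orf71, and 4 of 8 and 3 of 6 at VPS9D1/VPS9D1-AS1. The pooled counts thus mix loci with unlike sharing, and the part of that mix was not tested. The peaks at the loci had a median width of 242 nt in the DHX9-Rb list, against 201 nt over the whole list, and 198 nt against 191 nt in the DHX9-mAb list. Facing DHX9-Rb peaks had a median of 255 nt and the others 221 nt. A wider peak has more sequence in which to meet another, so width and both kinds of overlap are not separate measures, and their part in the counts was not tested.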

How the data were processed

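The authors deposited 1 list of peak regions per DHX9 antibody, with the first and last base (counted from 1), the strand and an empty score, and the labels tie each list to both replicates of its antibody. The other values in these deposited lists were not used. Reads were aligned with Bowtie2 2.2.6 and the build is hg19, per the submitters' processing notes. The peaks carry the name of the PEAKachu caller, and its settings were not stated. Members and loci were chosen with earlier results of these data known. Peaks overlapping each locus were taken with strands kept apart, and facing, sharing and covered nt were computed with Python 3.11.15, pandas 2.3.3 and NumPy 2.4.6. Intervals are 95% Wilson intervals. The overlap steps were tested on simulated data. No peak was filtered out, and no test was run because the loci were selected on the peaks. Genes, strands and transcripts came from GENCODE 29, and symbols from RefSeq, on GRCh38 (no coordinate was converted). Named peaks were chosen by position: all on the strand with fewer peaks where it had 10 or fewer, otherwise the first, last and widest, plus the widest peak per list, and the ends of facing stretches (all up to 10 per list, otherwise the longest 3 and the outermost).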

Additional observations from a re-analysis of the deposited data

How the results depend on the processing

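Of 152 values recomputed under other settings for 40 counts, 137 stayed within 1.5 times. Merging peaks of 1 strand within 50 nt lowered the most. At DDT/DDTL it left 3 plus-strand and 5 minus-strand DHX9-mAb peaks and 3 and 4 DHX9-Rb peaks, and upstream of SPEN 18 plus-strand DHX9-Rb peaks. It left 6 facing DHX9-Rb peaks at DDT/DDTL (against either list 7 for DHX9-mAb and 6 for DHX9-Rb), and 8 shared DHX9-mAb and 7 shared DHX9-Rb peaks there. With peaks of at least 150 nt, 9 DHX9-Rb peaks faced at DDT/DDTL. Counting peaks within 200 nt as facing gave 8 DHX9-mAb peaks upstream of SPEN. Asking for 50% of the shorter peak left 4 facing DHX9-Rb peaks at VPS9D1/VPS9D1-AS1, and, against either list, 5 there and 10 DHX9-mAb peaks upstream of SPEN. Outside the mitochondrial chromosome, 65 facing DHX9-Rb peaks lay at the 4 loci and 47 elsewhere, and this majority was lost with merged peaks (46 against 47) and within 200 nt (80 against 96) and held under the other 3 facing rules. Within 200 nt, 4 DHX9-mAb peaks faced elsewhere (otherwise 0). The cause was not tested. No paired analysis was possible because each list names no replicate; leaving out a replicate could not be done for the same reason. Depth is unknown, so an absent peak sets no limit on binding.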
